A study of Mus musculus with 2 samples.

Results

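The Notch pathway and the basic helix-loop-helix (bHLH) lineage factors were examined in a map of cJUN binding in the embryonic mouse intestine. The set held 56 genes, all found among the 21900 protein-coding genes of the RefSeq table used for names, and a gene counted as listed at a peak when the authors' table gave it among the genes nearest to that peak. By that rule 13 of the 56 genes were listed, at 17 of the 2741 cJUN peaks, and 43 were not. The peaks came from 1 cJUN immunoprecipitate, made with a rabbit polyclonal antibody, called against 1 input library of sheared DNA that had not been immunoprecipitated. Both were labelled as wild-type C57BL/6 whole intestine at E14.5, and the intestines came from the 8 embryos of 1 litter and spent 24 h in transwell culture. With 1 library per group no value has a replicate error, and there was no intestine of another genotype, treatment or stage to compare with. The whole organ mixes epithelium, mesenchyme, neural crest derivatives, vessels and blood, so binding in few cells and weak binding in many cannot be told apart. A peak list holds no expression values, so the tissue label could not be checked against markers.

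cJUN is a DNA-binding subunit of AP-1, a dimeric factor of the basic leucine zipper class. Notch signalling works between touching cells: a Delta or Jagged ligand on one cell leads to cleavage of a Notch receptor on its neighbour, and the freed intracellular domain joins the DNA-binding protein RBPJ and a Mastermind coactivator to switch on repressors of the HES and HEY families. In the gut epithelium these repressors hold back Atoh1, which drives the secretory lineage. Other bHLH factors act in neurons, mesenchyme and blood. Most pair with a broadly expressed E protein, and ID proteins block that pairing because they lack the basic, DNA-contacting region.

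The RefSeq promoters of Nrarp and Rbpj are printed because these 2 Notch genes had peaks within 50 kb and matches to motifs of the pathway's own factors. Of the 56 members, 43 matched a promoter entry by symbol. Each line gives the 250 bases before the start site in GRCm38.p6, 5′ to 3′ on the plus strand, at chr2:25180508-25180757 for Nrarp and chr5:53590096-53590345 for Rbpj (the first of 2 listed start sites). Capitals mark CACGTG, an E-box form bound by HEY and HES proteins, in Nrarp, and TGGGAA or its reverse complement TTCCCA, the core of the RBPJ site, in Rbpj.
Nrarp: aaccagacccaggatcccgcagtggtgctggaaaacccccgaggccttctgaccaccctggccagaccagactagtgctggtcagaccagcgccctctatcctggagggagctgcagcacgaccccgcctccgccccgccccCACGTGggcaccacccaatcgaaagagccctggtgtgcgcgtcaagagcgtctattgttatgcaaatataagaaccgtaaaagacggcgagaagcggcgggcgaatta
Rbpj: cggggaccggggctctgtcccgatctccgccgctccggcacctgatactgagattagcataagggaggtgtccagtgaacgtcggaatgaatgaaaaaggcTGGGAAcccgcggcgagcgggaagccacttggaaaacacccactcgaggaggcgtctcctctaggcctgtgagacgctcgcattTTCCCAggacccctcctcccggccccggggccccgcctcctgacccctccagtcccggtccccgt
Motifs were searched on both strands of these 250 bases. CACGTG was found in 3 of the 43 members with a promoter entry, against 7.61% of 17492 protein-coding genes. TGGGAA was found in 10 of the 43, against 23.5% of those genes. The AP-1 motif TGACTCA, with its reverse complement TGAGTCA, was found in 0 of the 43 and in 4.77% of all, and TGACGTCA in 0 of the 43 and in 2.20% of all. Beside shares this low, 43 promoters cannot show a shortage of these motifs. A match is a string of letters and not a bound site. No member peak lay in such a window, and the sequence under the peaks was not analysed here.

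The 13 listed genes made up 23.2% of the 56 (95% exact Clopper-Pearson interval 13.0 to 36.4, counting error only), beside 12.5% of all protein-coding genes (2745 of 21900). The Notch pathway genes were close to that background, with 3 of 22 listed (13.6%, 2.91 to 34.9). The epithelial or neural lineage factors had 4 of 15 (26.7%, 7.79 to 55.1) and the mesenchymal factors 3 of 9 (33.3%, 7.49 to 70.1). The remaining group, of ID proteins, E proteins, Bhlhe40 and Bhlhe41 and the blood factors Tal1 and Lyl1, had 3 of 10 (30.0%, 6.67 to 65.3). These shares are descriptions of genes and groups chosen with earlier results known, so neither they nor their intervals are a test against 12.5%.

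**Figure D1:**
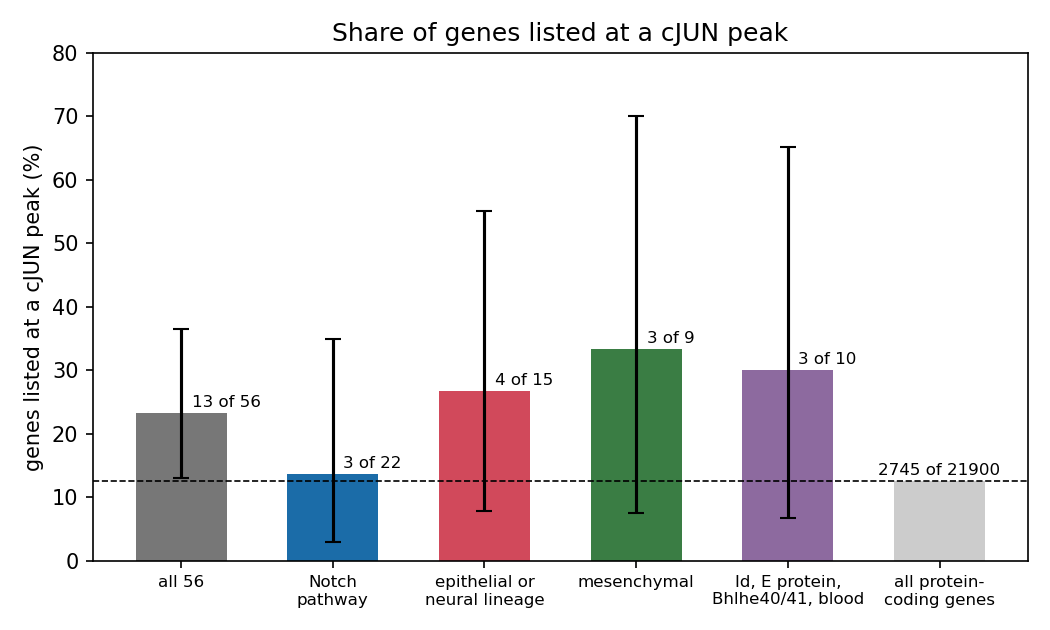
Bars give the percentage of genes listed at a cJUN peak for all 56 members, for the 4 groups and for all protein-coding genes, with black lines for exact 95% intervals and a dashed line at 12.5%. The Notch pathway bar, at 13.6%, is close to the dashed line, and the bars of the other 3 groups, with 9 to 15 genes each, have wide intervals.

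The 4 members with the closest peaks were Hey1, Nrarp, Olig3 and Rbpj, of which 3 are Notch genes. All 3 listed Notch genes had their peak within 50 kb. They were 13.6% of the 22 (2.91 to 34.9), beside 4.46% of all protein-coding genes (977 of 21900) listed within that distance. The group was chosen with earlier results known, so this interval is no test either, and 3 genes cannot show that Notch genes lie closer to peaks. Over all 56 members the share within 50 kb was 7.14%. Of the listed protein-coding genes, 35.6% had their closest peak within 50 kb. Of the 34 other members Olig3 alone was listed within 50 kb. Over all 13 genes the closest peak was a median of 73.6 kb away (range 12.3 to 959 kb), beside a median of 83.6 kb over the 2745 listed protein-coding genes. By the listed distances, no member peak lay within 5 kb of the start of its gene. Other start sites of the same gene were not considered. A positive distance was read as downstream of the start, in the gene's own direction, because that reading gave a single start site for 662 of 677 genes (97.8%) with 2 or more peaks and a known strand. By it, 12 of the 17 member peaks lay downstream and 5 upstream, where 52.3% of the 4313 listings of protein-coding genes were downstream. The 12 are not independent, because neighbouring downstream peaks of Atoh1, Twist1 and Tcf12 were each counted.

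**Figure D2:**
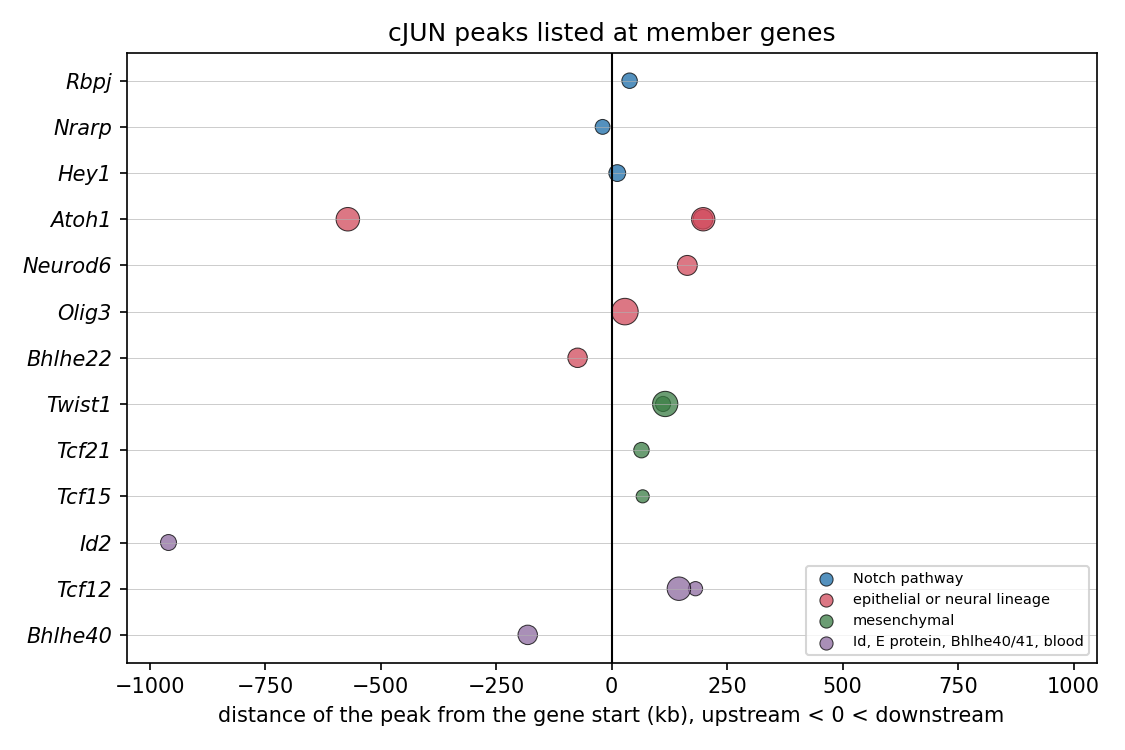
Each circle is a cJUN peak listed at the gene named on the left, placed by its distance in kb from the gene start (black line at 0), with larger circles for higher scores and colours for the 4 groups. The 3 Notch genes lie within 39.0 kb of the line, and Id2 lies farthest from it at 959 kb upstream.

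Peak strength was given by the authors' caller as a fold over background, a ratio, and as a score of 10 times the −log10 p of the peak. The member peaks had a median fold of 15.7 (range 5.23 to 19.2) and a median score of 66.8 (54.95 to 85.6). All 2741 peaks had a median fold of 16.8 (range 2.4 to 45.25) and a median score of 61.3 (50.01 to 3189). The member scores thus lay in the low part of the range, near the lowest score in the list. No member peak reached a score of 100, which 127 of all peaks (4.63%) did. None lay in a cluster of 5 or more peaks, which held 215 of all peaks (7.84%). Beside shares this low, 17 member peaks cannot show a shortage of either kind.

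In the Notch pathway, the receptor genes Notch1, Notch2, Notch3 and Notch4 and the ligand genes Dll1, Dll3, Dll4, Jag1 and Jag2 were not listed at any peak. With 0 of 4 receptors and 0 of 5 ligands, the exact intervals reach 60.2% and 52.2%, beside 12.5% of all protein-coding genes. These intervals are no test, and sets this small cannot show a shortage. The coactivator genes Maml1, Maml2 and Maml3 were not listed either. The 3 listed genes were those of a nuclear partner of Notch, a feedback inhibitor and a transcriptional repressor.

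Rbpj, the gene of the DNA-binding partner of cleaved Notch, had 1 peak at chr5:54020361-54020508, on mm9, as are all peak positions here. It lay 39.0 kb downstream of the gene start, at fold 14.74 and score 58.82, in the lower part of the list (score percentile 36.3). The other listed gene, 78.5 kb away, was the cholecystokinin receptor gene Cckar. Nrarp encodes an ankyrin-repeat protein that is induced by Notch and limits the signal in turn. The Nrarp peak, at chr2:25016789-25016941, lay 19.4 kb upstream (score 57.75, fold 14.74). The NADPH oxidase activator gene Noxa1 was 66.2 kb away. Of the 8 HES and HEY genes among the members, Hey1, a repressor gene induced by Notch, had the one peak (12.5%, equal to the share of all protein-coding genes), and Hes1, Hes3, Hes5, Hes6, Hes7, Hey2 and Heyl were not listed. The Hey1 peak was the closest of any member, 12.3 kb downstream at chr3:8654683-8654819 (fold 18.42, score 61.3). That score was the median of the whole list. The neuronal stathmin gene Stmn2 was listed at the same peak, 145 kb away. Rbpj, Nrarp and Hey1 were each the nearer of the listed pair.

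Among the epithelial and neural lineage factors, Atoh1 had 3 peaks, more than any other member. One lay 571 kb upstream, at chr6:64108128-64108269, at fold 15.99 and score 76.86, and Atoh1 was the nearer of its listed genes. The other two lay 197.9 and 198.4 kb downstream, at chr6:64876943-64877077 and chr6:64877453-64877617, and were 0.376 kb apart. Their folds were 15.71 and 14.74 and their scores 67.23 and 76.49. Both were closer to Smarcad1, a chromatin remodeller gene, at 115.7 and 115.1 kb. The scores of the 3 peaks stood at percentiles 87.1, 71.2 and 86.7 of the list, all above its median. Atoh7 and Atoh8, relatives of Atoh1, and Ascl2, known from intestinal stem cells, were not listed.

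Olig3, a factor of dorsal neural tube progenitors, had the member peak with the highest score and the highest fold. It lay 28.9 kb downstream at chr10:19105185-19105374, at fold 19.19 and score 85.58 (score percentile 91.8). The interferon gamma receptor gene Ifngr1 was 206 kb away. Olig1 and Olig2, which neighbour each other, were not listed. Bhlhe22, a neuronal repressor gene related to the Olig genes, had a peak 73.6 kb upstream at chr3:17880645-17880848 (fold 14.28, score 66.77). Cypt12 was nearer to it, at 32.3 kb. Neurod6, a neuronal differentiation gene, had a peak 164 kb downstream at chr6:55467239-55467393, at fold 18.42 and score 67.95. That peak was closer to Adcyap1r1, a neuropeptide receptor gene, at 65.3 kb. The neurogenin genes Neurog1, Neurog2 and Neurog3, of which the last starts the endocrine lineage of the gut, were not listed, nor were Neurod1, Neurod2 and Neurod4.

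Among the mesenchymal factors, Twist1 had 2 peaks that lay 4.57 kb apart and differed in kind. Both were downstream, at 111 and 116 kb, and both listed the histone deacetylase gene Hdac9 at 460 and 455 kb. The nearer one, at chr12:34753891-34754041, was 150 bp long (score 58.17, fold 18.42). The farther one, at chr12:34758613-34758683, was 70 bp long (fold 5.23, score 81.78). It had the lowest fold, the shortest length and the second highest score of the member peaks, and it was the single member peak with a fold under 10, a range that held 331 of all peaks. Of all 138 peaks shorter than 100 bp, 93 had a fold under 10. Leaving out folds under 10 did not remove Twist1, which kept its other peak. Tcf21, expressed in mesenchyme and mesothelium of visceral organs, had a peak 64.7 kb downstream at chr10:22475132-22475279, at fold 14.74 and score 58.82. Tbpl1 was closer to it, at 24.0 kb. Tcf15, a paraxial mesoderm gene, had the member peak with the lowest score, 54.95, with a fold of 13.4. It lay 67.4 kb downstream at chr2:152036592-152036743, and 15.9 kb from Csnk2a1, a casein kinase subunit gene. Twist2, Hand1, Msc, Scx, Mesp1 and Mesp2 were not listed.

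Of the dimer partners, Tcf12, one of the E protein genes, had 2 peaks 35.8 kb apart. One lay 146 kb downstream at chr9:71813826-71813989 (score 76.73, fold 18.42). The other lay 182 kb downstream at chr9:71777901-71778046 (fold 13.6, score 56.7). The junction gene Cgnl1 was listed at both, at 194 and 159 kb, and at the weaker peak it was the nearer gene by the listed distances. RefSeq gives several Tcf12 start sites, and distances from those not used by the authors were not computed. The E protein gene Tcf4 was not listed. Id2, an inhibitor of E proteins, had a peak 959 kb upstream, the farthest of any member, at chr12:26739991-26740134, at fold 18.42 and score 59.7. Rnf144a, a ubiquitin ligase gene, was nearer to that peak at 360 kb. Id1, Id3 and Id4 were not listed. Bhlhe40, a repressor gene linked to the circadian clock, had a peak 182 kb upstream at chr6:108429025-108429184 (score 66.8, fold 18.42). Itpr1, a calcium channel gene, was 266 kb away. Its relative Bhlhe41 and the blood factors Tal1 and Lyl1 were not listed.

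**Figure D3:**
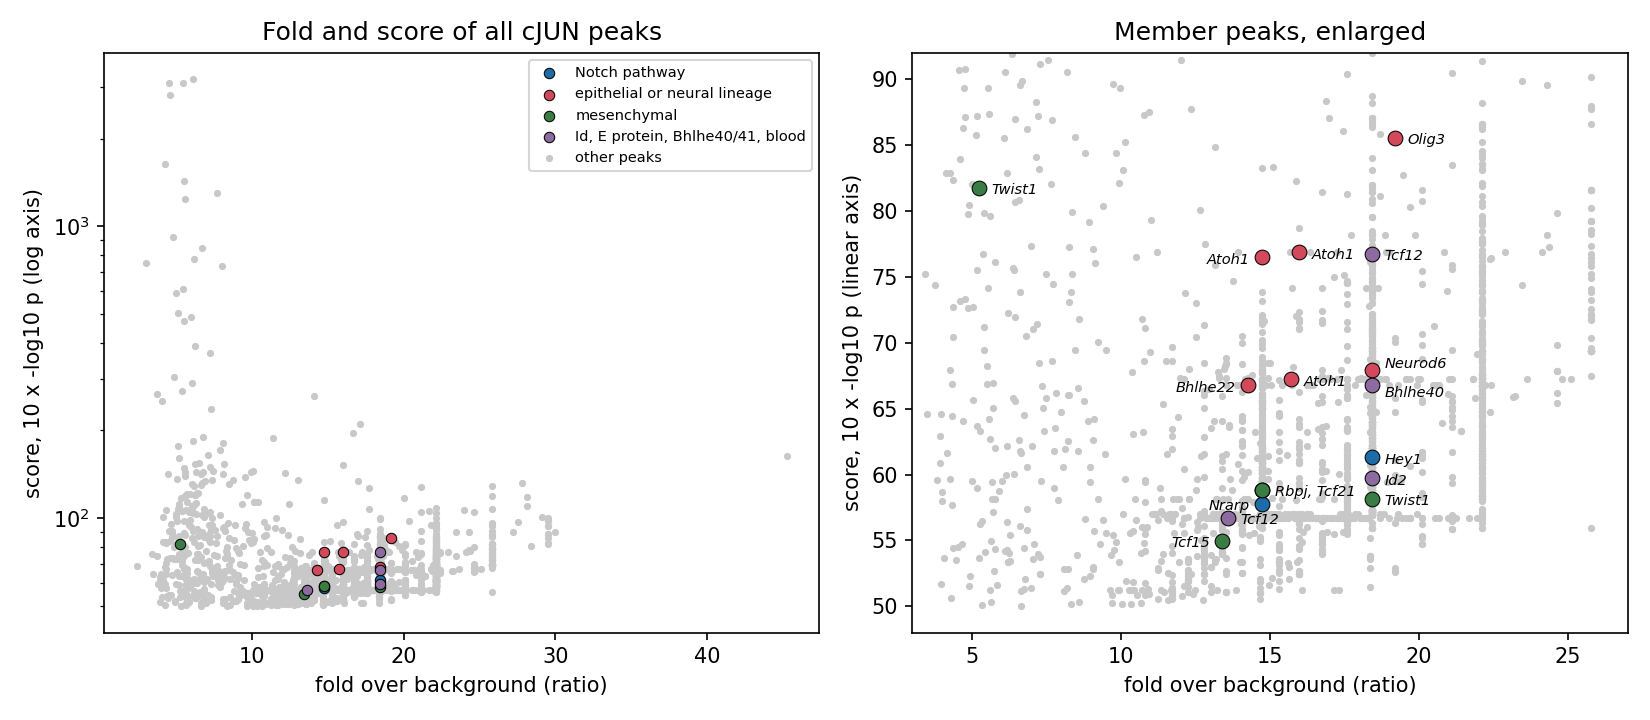
Each point is a cJUN peak, by its fold over background and its score, with member peaks coloured by group; the left panel shows all peaks on a log score axis and the right panel enlarges the members on a linear one. The member peaks lie between scores of 54.95 and 85.58, Rbpj and Tcf21 share 1 point, and the shorter Twist1 peak stands apart at a fold of 5.23.

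Many of these values were tied. The Rbpj and Tcf21 peaks had the same length (147 bp), the same fold and the same score, and 18 further peaks of the list had them too. The Hey1 peak shared its length, fold and score with 18 other peaks, the Nrarp peak with 12, the Id2 peak with 20 and the 150 bp Twist1 peak with 14. In all, 10 of the 17 member peaks had a fold and a score found together at another peak, as did 1525 of the 2741 (55.6%). A fold of 18.42 occurred at 6 member peaks and 653 of all peaks, a fold of 14.74 at 4 and 438, and a fold of 22.11 at 0 and 279. The reads under each peak were not examined here, so such a fold alone does not show strong enrichment. The peaks of Olig3, Bhlhe22 and Atoh1, the 70 bp Twist1 peak and the stronger Tcf12 peak had a pair of values found nowhere else in the list. Peaks with the same fold and score could not be ranked against each other.

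The pairing of a peak with a gene rested on position alone. In all 17 cases the second listed gene was the next protein-coding gene to the member along the chromosome, in the gene order of GRCm38.p6. The member was the nearer gene at 9 of the 17 peaks. Counting the nearer gene alone left 8 of 56 members (14.3%), beside 7.61% of protein-coding genes (1666 of 21900). Those 8 were Rbpj, Nrarp, Hey1, Atoh1, Olig3, Twist1, Tcf12 and Bhlhe40, so all 3 Notch genes were among them, whereas Bhlhe22, Neurod6, Tcf21, Tcf15 and Id2 were not. Of the listed members, 3 of 13 (23.1%) had 2 or more peaks, beside 852 of the 2745 listed protein-coding genes (31.0%).

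**Figure D4:**
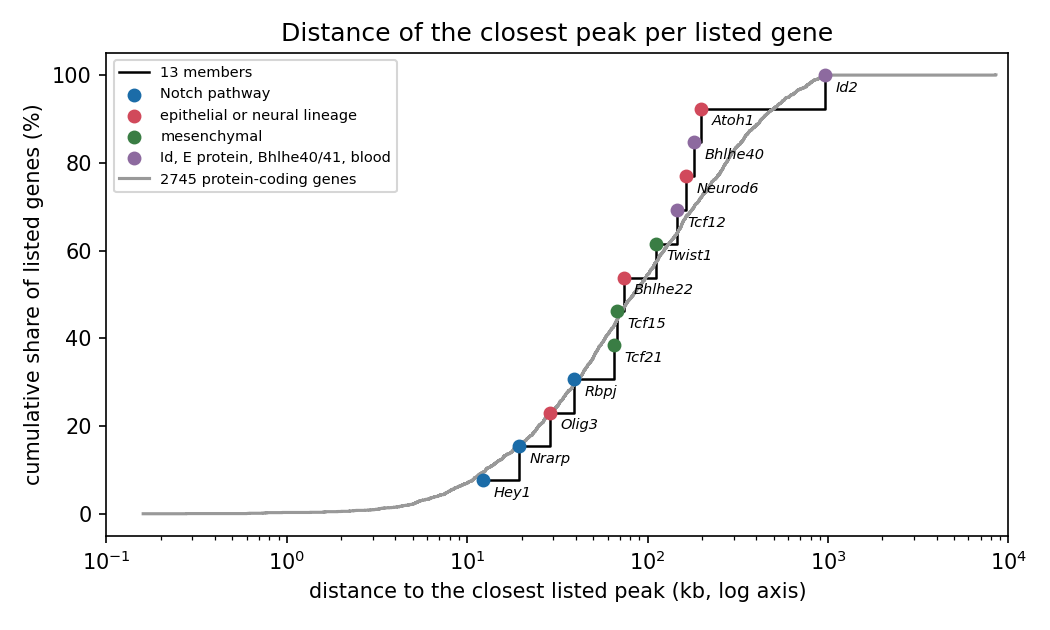
The black step line gives, for the 13 listed members, the cumulative percentage with a closest peak at or under the distance on the log axis in kb, with a coloured point per gene, and the grey line gives the same for the 2745 listed protein-coding genes. Hey1, Nrarp, Olig3 and Rbpj come first, at 12.3 to 39.0 kb, and the median is 73.6 kb for the members and 83.6 kb for all.

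The neighbours of the 43 members without a peak were also looked up. A peak between such a member and its neighbour would as a rule list the member too. Choosing members without a peak therefore lowers the share of listed neighbours by construction, and the 12.5% of all protein-coding genes is not a like comparison. Of 82 different protein-coding neighbours, other members aside, 7 were listed (8.54%). These were Btbd3 beside Jag1, Mtmr2 beside Maml2, Mgst2 and Foxo1 on either side of Maml3, St3gal5 beside Atoh8, Rnf144b beside Id4 and Mc2r beside Tcf4. Just 6 of the 43 members without a peak had a listed neighbour. Having none, as for the Notch receptor genes, the neurogenin genes and Hes1, was thus the common outcome and not particular to these genes.

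Further genes of the pathway and of the bHLH family gave the following. Of 41 other Notch pathway genes, which cover the glycosyltransferases, the proteases that cleave the receptor, endocytic regulators, nuclear cofactors and the non-canonical ligands Dlk1, Dlk2 and Dner, 2 were listed (4.88%, 0.596 to 16.5), beside 12.5% of all protein-coding genes. Adam10, the gene of a protease that cuts Notch at the cell surface, had a peak 20.5 kb upstream (fold 17.32, score 51.25), and Fam63b lay 1.35 kb from that peak. Dlk1, a gene of a Delta-like protein, had a peak 178 kb upstream, at fold 14.45 and score 56.7. Of 24 other bHLH genes, most of them tissue-specific but with the E protein gene Tcf3 and the HES gene Hes2 among them, 5 were listed (20.8%, 7.13 to 42.2), beside the same 12.5%. Hand2, a mesenchymal and enteric neuron gene, had 5 peaks, 137 to 499 kb upstream. They included pairs 0.283 and 0.947 kb apart, and at the pair 499 kb upstream Fbxo8 was the nearer gene, at 271 kb. Tal2 had 2 peaks at 35.5 and 37.0 kb downstream, and the first of them scored 108.59, above every member peak. Both were closer to Tmem38b, at 10.9 and 9.3 kb. Ptf1a, a pancreas and hindbrain gene, had a peak 63.7 kb downstream with a fold of 4.7. Its score of 86.31 was also above every member peak. Ferd3l had a peak 361 kb upstream. The nearer genes at those peaks were 4921504E06Rik, at 44.6 kb, and Twistnb, at 138 kb.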

How the data were processed

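The data were 1 list of cJUN peaks from the immunoprecipitate and its input. The submitters' processing notes name Bowtie 1.1.0, MACS 1.4 and the build mm9. Filters on reads, duplicate handling, library depth, the peak threshold and the tool that listed genes are not given in the sources used here. Fold is a ratio over background and the score is 10 times −log10 of the authors' p-value, per the file headers; both are the authors' deposited values and were used to describe peaks within this list. Positions and distances were deposited in bp; the file does not say whether they are counted from 0 or 1.

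Listed names were matched to RefSeq symbols or single-gene synonyms (GRCm38.p6), and 2870 of 2963 names (96.9%) matched. No member was matched through a synonym. Genes listed at a peak were counted, with exact 95% intervals (Python 3.11.15, scipy 1.17.1, pandas 2.3.3), beside the share of all protein-coding genes. Promoter sequences were those of RefSeq GRCm38.p6. No test between samples was possible with 1 library per group. Counting was tested on simulated listings. Every listed member was named, as were the listed genes of 2 further lists, apart from a few names that are not reported here; members, groups and lists were chosen with earlier results of these data known. The alternatives were a score of at least 100, a score at or above the median, a fold of at least 10, the nearest gene, limits of 50 and 100 kb, peaks within 1 kb counted once, peaks outside clusters (5 or more with gaps up to 100 kb), and exact symbols.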

Additional observations from a re-analysis of the deposited data

How the results depend on the processing

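The number of listed members stayed at 13 without folds under 10, when peaks up to 1 kb apart counted as 1, without clustered peaks and with exact symbols; member peaks then numbered 16 or 17, and the counts of all 4 groups were as reported. With a score of at least 100 every count was 0, while 0.644% of protein-coding genes were still listed. With scores at or above the median, 8 members at 10 peaks remained (7.31% of protein-coding genes), with 1 Notch gene and 1 mesenchymal gene. With the nearest gene only, 8 members at 9 peaks were left, with 2 lineage genes and 1 mesenchymal gene. Within 50 kb there were 4 members at 4 peaks, with 1 lineage gene, 0 mesenchymal genes and 0 of the remaining group. Within 100 kb there were 7 members at 7 peaks (6.83% of protein-coding genes), with 2 lineage genes and 0 of the remaining group. Each of these rules removes listings by construction. The Notch count of 3 was the same under every alternative but those on score. No paired analysis was possible because each group had 1 library and no result came from a test. Library depth is unknown, so how many weaker peaks were missed could not be estimated.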
